A study of Mus musculus with 4 samples.

Results

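Kupffer cells are the resident macrophages of the liver, and 1369 of the 25611 nuclei that passed the quality filters were taken as Kupffer nuclei. A nucleus was taken where it held at least 500 detected genes, at most 5% mitochondrially encoded transcripts, at least 4 transcript counts summed over Cd5l, Clec4f, Timd4, Vsig4, Cd163 and Adgre1, and at most 1 count summed over Stab2, Ptprb, Reln, Skap1 and Pax5, genes of endothelial, stellate, T and B cells. The nuclei were thus chosen by their own counts of these genes, and their difference from other nuclei is described without a test. Counts are unique molecular identifiers (UMIs), 1 for each captured transcript molecule. The other 7885 non-hepatocyte nuclei held 4193 endothelial, 1863 stellate and mesenchymal, 700 T and NK, 330 B and 135 monocyte and dendritic nuclei, named by their markers, and nuclei left unnamed.

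Nuclei came from liver outside tumors of male mice, 12 months old, and their RNA was sequenced nucleus by nucleus. All mice had received diethylnitrosamine (DEN), which causes liver tumors, at 14 days of age and a dose of 25 mg/kg, so no unexposed liver was compared. The label Brca1-WT was given to 2 libraries and the label Brca1-KO to the other 2. The sources used here do not give the strain, the allele, the cell type in which Brca1 was deleted or the deleted exons. The labels call the libraries of each group biological replicates but do not say whether each is 1 mouse. The p-values thus measure the spread between these libraries, which may be partly technical. Sets of 4 values below follow the order Brca1-WT 1, Brca1-WT 2, Brca1-KO 1 and Brca1-KO 2. Kupffer nuclei numbered 349, 384, 244 and 392, and they held 1219256, 955206, 704267 and 888389 UMIs in all.

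Kupffer cells sit in the lumen of the sinusoids, where they clear bacteria, immune complexes, dying cells and aged red cells from portal blood. Pattern, complement and phosphatidylserine receptors do the binding, and ferroportin exports the iron recovered from hemoglobin. Their identity is known to depend on transcription factors that include PU.1 (Spi1), LXR-alpha (Nr1h3), ID3 and SPIC, and resident cells are told from recruited monocytes by Clec4f and, in long-lived cells, by Timd4.

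Libraries stood apart in several ways. Brca1-KO 2 held 346 endothelial nuclei against 1041 to 1484 in the others. Brca1-WT 2 carried transcripts in its Kupffer nuclei that the other libraries hardly held, described at the end. Between 9 and 20 barcodes were shared by any pair of libraries, and none was shared among Kupffer nuclei. Brca1 did not check the labels: Kupffer nuclei held 12, 8, 6 and 4 Brca1 UMIs, too few to test, and the level in hepatocyte-rich nuclei was 13.3, 12.1, 18.6 and 5.68 CPM (counts per sum of nuclei, scaled so that every sum has the same total), where the groups overlapped. Without the deleted exons, it is not known whether these 3′ reads could show the deletion.

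The upstream sequences of 4 genes of the rule are shown because these genes define the nuclei. Each is the stretch of 250 bases before the annotated start, 5′ to 3′ along the gene, from RefSeq (GRCm38.p6). Capitals mark matches on either strand to GAGGAA (the core bound by PU.1 and other ETS factors), AGGTCA (a half-site of nuclear receptors such as LXR and RXR) or TGCTGA (a half-site of Maf factors).
Cd5l (chr3:87357631-87357880, plus strand): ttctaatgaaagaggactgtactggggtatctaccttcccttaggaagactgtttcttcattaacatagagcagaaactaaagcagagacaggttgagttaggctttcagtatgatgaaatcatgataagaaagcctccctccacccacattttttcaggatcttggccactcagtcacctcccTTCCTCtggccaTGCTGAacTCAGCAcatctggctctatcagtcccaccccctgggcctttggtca
Clec4f (chr6:83656117-83656366, minus strand): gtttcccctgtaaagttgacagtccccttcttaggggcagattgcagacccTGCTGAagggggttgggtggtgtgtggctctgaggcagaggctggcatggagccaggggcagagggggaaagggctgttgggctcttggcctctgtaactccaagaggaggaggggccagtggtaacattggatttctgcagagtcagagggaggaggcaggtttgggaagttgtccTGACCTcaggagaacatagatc
Timd4 (chr11:46810549-46810798, plus strand): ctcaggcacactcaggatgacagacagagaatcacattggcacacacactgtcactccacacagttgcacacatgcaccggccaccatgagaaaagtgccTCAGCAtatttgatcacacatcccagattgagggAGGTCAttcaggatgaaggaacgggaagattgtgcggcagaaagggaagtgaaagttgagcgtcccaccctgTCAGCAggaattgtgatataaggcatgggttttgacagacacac
Vsig4 (chrX:96293439-96293688, minus strand): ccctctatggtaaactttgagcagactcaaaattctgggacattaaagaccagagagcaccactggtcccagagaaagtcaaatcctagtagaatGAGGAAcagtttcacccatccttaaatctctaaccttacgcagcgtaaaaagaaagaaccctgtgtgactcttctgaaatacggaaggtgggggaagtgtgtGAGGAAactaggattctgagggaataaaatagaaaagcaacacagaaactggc
No match overlapped another in these windows. Of the 6 genes, 5 had an entry, and the Cd163 window held none of the 3 motifs. GAGGAA was found in 2 of the 5 (Cd5l and Vsig4), AGGTCA in 2 (Clec4f and Timd4) and TGCTGA in 3 (Cd5l, Clec4f and Timd4), while 23.3%, 14.0% and 16.1% of all 32851 windows of that length held them. A match describes the letters only and is not a binding site.

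The genes of the rule summed to 3927 to 5102 CPM in the Kupffer sums of the 4 libraries and to 10.6 to 129.6 CPM in the other classes. The named non-hepatocyte classes were limited to nuclei with at most 1 UMI of these genes, which holds their level down. Clec4f, a C-type lectin that mouse Kupffer cells carry, was at 1174, 1090, 987 and 1051 CPM. Cd5l, a secreted scavenger protein that supports macrophage survival, was at 1051, 1103, 623 and 951 CPM. Cd163, the receptor for haptoglobin-bound hemoglobin, was at 602, 920.2, 937 and 562 CPM.
Cd5l was lowest in Brca1-KO 1, and Cd163 was high in 1 library of each genotype. Vsig4, a receptor for complement fragments on bacteria, ranged from 513 to 760.0 CPM. Adgre1 (F4/80) ranged from 494 to 732 CPM, and Timd4, a phosphatidylserine receptor for dying cells, from 244 to 496 CPM.

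**Figure D1:**
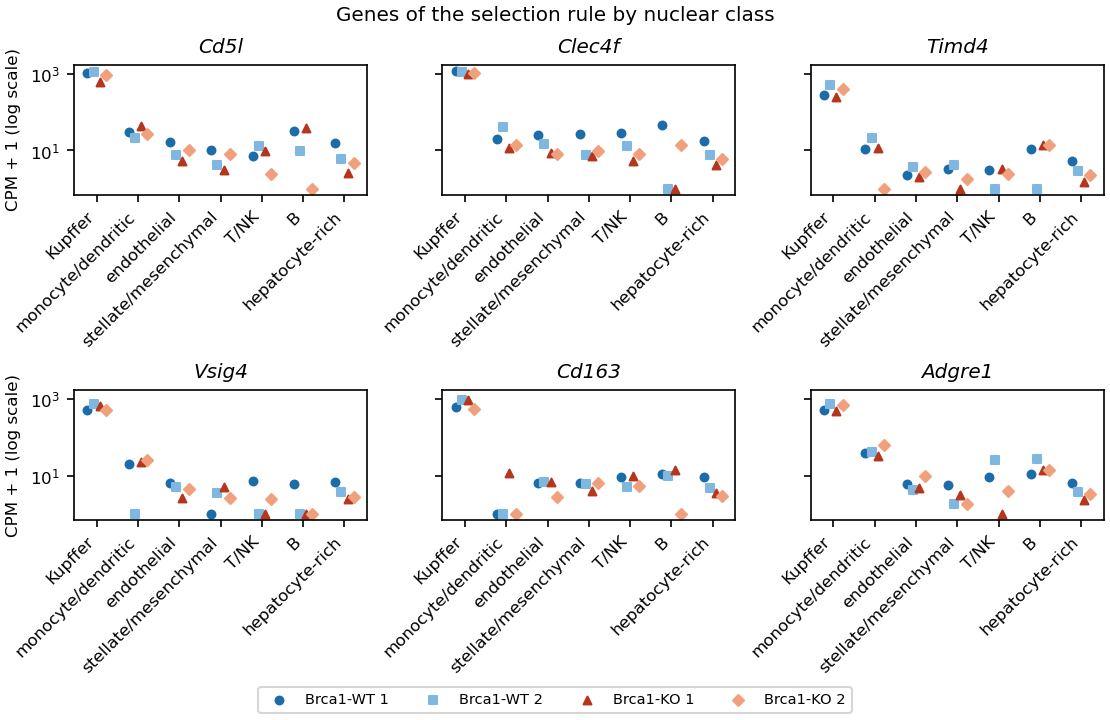
CPM plus 1 on a log axis for the 6 genes of the rule in 7 classes of nuclei; each point is 1 library. Kupffer points lie above the points of every other class for each gene, which the rule and the limit on these genes in the named non-hepatocyte classes bring about.

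The count threshold of the rule fell where nuclei were still present on both sides. With 4 marker UMIs, just inside, there were 19, 25, 31 and 51 nuclei, and with 3, just outside, there were 21, 27, 25 and 57. The median was 12, 11, 10 and 7 marker UMIs per nucleus, so Brca1-KO 2 lay nearest to the threshold. The limit on Stab2, Ptprb, Reln, Skap1 and Pax5 removed 228, 81, 56 and 52 of 577, 465, 300 and 444 nuclei that had enough marker UMIs. Stab2, a scavenger receptor of sinusoidal endothelium, was present in 84.6% to 95.1% of the removed nuclei. Called doublets made up 23.1% to 46.9% of the removed nuclei and 14.3%, 10.7%, 7.79% and 5.61% of those kept.

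Hepatocyte transcripts were present in Kupffer nuclei as well. The 20 hepatocyte markers summed to 14816, 13207, 12548 and 10204 CPM in Kupffer sums, against 3745 to 8860 CPM in the other non-hepatocyte classes and 20171 to 26320 CPM in hepatocyte-rich nuclei. Nuclei above the library's cutoff for the hepatocyte share made up 27.5%, 21.4%, 20.9% and 25.3% of Kupffer nuclei and gave 56.5%, 42.7%, 44.4% and 36.8% of their UMIs. Without them the hepatocyte markers summed to 4898 to 6143 CPM. The other non-hepatocyte classes were defined below that cutoff and hold no such nuclei. Their part in the differences below was not tested, except where the value without them is given.

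Outside the rule, the genes with the highest ratio to other classes were Ms4a8a, Gbp2b and Tmem117. Among 3477 genes at 50 CPM or more in every Kupffer sum, 15 were at least 4-fold above the highest other non-hepatocyte class in every library (0.431%), 6 of them the genes of the rule. Without nuclei of high hepatocyte share there were 28. Ratios use CPM plus 5 in both classes. The 25 genes of this group, of which 1 is not reported, are those outside the rule with the highest ratio in their least favourable library.

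Ms4a8a, of the MS4A family of membrane proteins, was at 162, 193, 236 and 107 CPM and at most 10.8 CPM in any other non-hepatocyte class, a ratio of 10.9 to 22.4. Ksr2, a scaffold of the RAF and MEK kinases, was at 399, 341, 400.4 and 593 CPM, against at most 101 CPM elsewhere. Kcnj16, an inwardly rectifying potassium channel, was at 382, 479, 650.3 and 267 CPM, against at most 81.2 CPM.
All 4 Kupffer sums stood above the other classes for each of these genes, and the highest other values of Ksr2 and Kcnj16 come from the small monocyte and dendritic class. Tmem117 (86.6 to 135 CPM), Slit1, an axon guidance ligand (66.7 to 134 CPM), Rims3, best known at synapses (80.4 to 156 CPM), and Ank2, which encodes an ankyrin that anchors membrane proteins to spectrin (249 to 500.3 CPM), also belonged to the group. Epb41l3, a linker of membrane and cytoskeleton, was at nearly the same level in the 4 libraries, 203, 222, 217 and 251 CPM. Dmpk, a serine/threonine kinase, was at 207 to 387 CPM, and Ccdc148 at 275 to 468 CPM.

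Slc40a1 encodes ferroportin, the cellular iron exporter, and was at 741, 1136, 1081 and 1036 CPM, against 90.0 to 162 CPM in endothelial and 131 to 187 CPM in stellate and mesenchymal nuclei. Siglec1 (CD169), which binds sialylated particles, was at 64.0, 67.0, 75.3 and 65.3 CPM and at most 25.2 CPM elsewhere. Pltp, a phospholipid transfer protein and LXR target, was at 136, 137, 135 and 210.5 CPM.
Siglec1 was even across libraries, while Slc40a1 was lowest in Brca1-WT 1 and Pltp highest in Brca1-KO 2. The adhesion molecule Vcam1 (176 to 416 CPM), the adhesion receptor Adgre4 (297 to 489 CPM), the activating receptor Lilra5 (86.1 to 136 CPM) and the interferon-inducible GTPase Gbp2b (57.4 to 74.6 CPM) also belonged to the 25. Wdfy3, an adaptor of selective autophagy, was at 1428 to 1553 CPM, with a ratio of 2.74 to 2.91. Frmd4b was the most abundant of the 25 at 1919 to 2684 CPM, and Marco, Pcolce2, Engase, Tex14 and Sdc3 were further members.

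**Figure D2:**
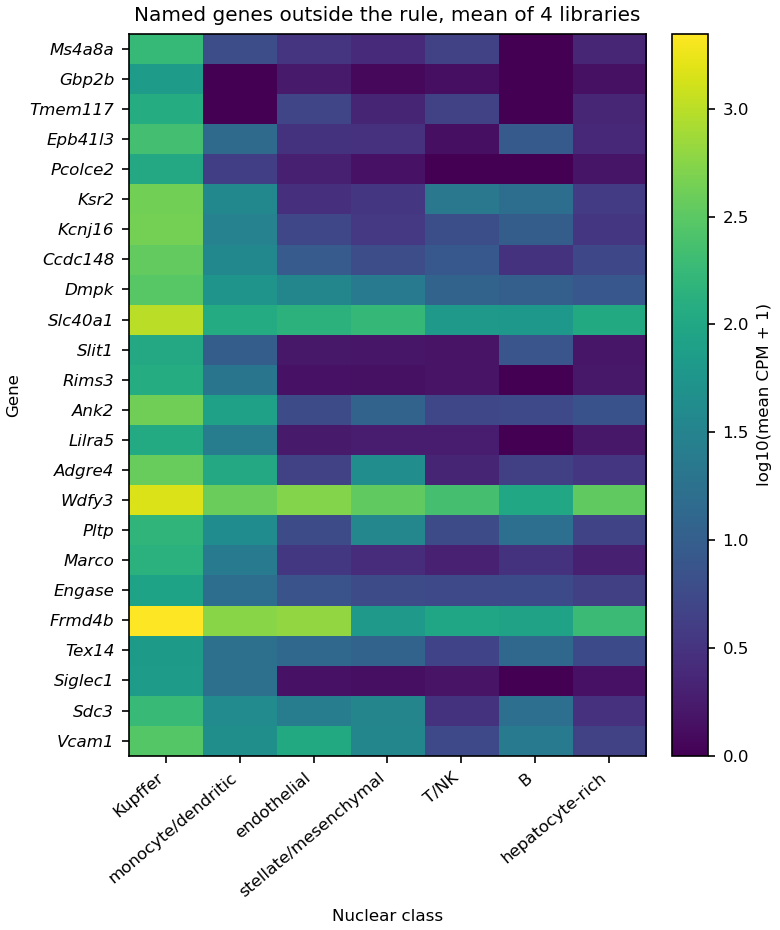
Mean CPM of 4 libraries, as log10(mean CPM + 1), for the named genes in order of rank, in 7 classes of nuclei (columns). The Kupffer column is the brightest for every gene, and the column next in brightness differs between genes, the stellate and mesenchymal one for Slc40a1.

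Upstream windows were found for 19 of these 25 genes. GAGGAA was in 4 of the 19, AGGTCA in 2 and TGCTGA in 5, to be read beside the shares of all windows given above.

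Genes often used to recognise Kupffer cells did not all separate them from other nuclei. Over all genes at 50 CPM or more, 233 of 3477 (6.7%) were above every other non-hepatocyte class in every library. Of the 20 further identity genes, 15 reached that level and 10 of those were above every class, among them C6, a component of the terminal complement complex (645 to 1157 CPM), and the phosphatase gene Ptprj (2600 to 3460 CPM). Folr2, a folate receptor, reached only 15.6 to 27.2 CPM but at most 2.22 CPM elsewhere. Endothelial nuclei exceeded Kupffer nuclei for Clec1b, a C-type lectin (109.7 to 261 against 59.6 to 99.5 CPM), and for the mannose receptor Mrc1 (1072 to 2162 against 696 to 1036 CPM). Cd38 (381 to 637 against 261 to 389 CPM) and Cdh5 (173 to 199 against 80.4 to 138 CPM) were also held at least as highly by endothelial nuclei. The sums of these genes thus do not tell Kupffer from endothelial nuclei here. Slc16a9, a monocarboxylate transporter family gene, was at 99.9 to 169.8 CPM in stellate and mesenchymal and 91.2 to 141 CPM in Kupffer nuclei. In Brca1-WT 1, Brca1-WT 2 and Brca1-KO 1 a Slc16a9 UMI was seen in 23.2%, 24.2% and 31.1% of Kupffer nuclei. Endothelial nuclei of these libraries showed it in 1.62%, 1.21% and 0.865%.

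Transcription factors divided in the same way, with 3 of 13 above every class, Nr1h3 and Rxra among them. Nr1h3, which encodes LXR-alpha, was at 158, 217, 199 and 284 CPM and at most 87.6 CPM in the other non-hepatocyte classes. Spi1, which encodes PU.1, was at 252 to 339 CPM in Kupffer nuclei, 214 to 548 CPM in monocyte and dendritic nuclei and at most 5.88 CPM in endothelial nuclei. Spic, needed for iron-recycling macrophages, was at 46.9 to 92.1 CPM and at most 12.6 CPM elsewhere.
Spi1 was thus shared with monocyte and dendritic nuclei. Irf8, a factor of monocytes and dendritic cells, was at 718 to 994 CPM there and 86.6 to 165 CPM in Kupffer nuclei. Maf was higher in endothelial nuclei (1081 to 2306 against 386 to 467 CPM), and Mef2c was at most 12.3 CPM in Kupffer nuclei against 940.5 to 1644 CPM in B nuclei.

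Scavenging, complement and growth factor receptor genes were expressed broadly. Mertk, a receptor for dying cells, was at 1666 to 2421 CPM in Kupffer nuclei and 698 to 1581 CPM in endothelial nuclei, and its relative Axl at 175 to 261 CPM and at most 108 CPM elsewhere. C1qa, C1qb and C1qc, the chains of C1q, which starts the classical complement pathway, were at 77.1 to 153, 80.4 to 141 and 58.2 to 98.0 CPM. Csf1r, the receptor that macrophages need to survive, was at 287, 539, 355 and 391 CPM against 108 to 252 CPM in monocyte and dendritic nuclei.
Of the genes at 50 CPM or more, 7 of 16 scavenger and efferocytosis genes, 4 of 7 complement genes, 6 of 16 lipid-handling genes, 3 of 14 iron and heme genes and 2 of 17 growth factor and cytokine receptors were above every other class in every library. Antigen presentation had 0 of 7. Cd74, the invariant chain, was at 61.1 to 87.8 CPM in Kupffer nuclei and 443 to 711 CPM in monocyte and dendritic nuclei. Ciita, the master regulator of class II genes, was at 22.7 to 84.4 against 506 to 690.5 CPM.

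Genes of recruited or scar-associated macrophages summed to less in Kupffer than in monocyte and dendritic nuclei. The 16 scar- and lipid-associated genes found in the files summed to 217 to 293 CPM in Kupffer nuclei, 589 to 2095 CPM in monocyte and dendritic nuclei and 144 to 178 CPM in endothelial nuclei. Lgals3, which encodes galectin-3, was at 72.3, 94.7, 117 and 142 CPM after TMM scaling, higher in both libraries labelled Brca1-KO (log2 fold change 0.64 ± 0.25, edgeR adjusted p 0.988). Mmp14, a membrane-bound metalloproteinase of the same list, had the other sign, at 25.8, 52.6, 13.0 and 14.3 CPM (-1.48 ± 0.46). Trem2, a lipid receptor of scar-associated macrophages, was at 2.84 to 10.1 CPM, Spp1 and Fabp4 were at 0, and Itgax, which encodes CD11c, was at 0 to 6.56 CPM, against 63.0 to 244 CPM in monocyte and dendritic nuclei. Of the 17 monocyte and dendritic markers, Ly6c2, S100a8, Ace, Cd209a and Ccr7 were at 0 in all Kupffer sums. Their summed level was 1028 to 1458 CPM in Kupffer nuclei, of which Cadm1, an adhesion molecule, gave 920.2 to 1362 CPM, and 3604 to 4693 CPM in the monocyte and dendritic class. That class was chosen by counts of these same markers, so its higher sum follows from the choice. Its 135 nuclei also held 156 to 1767 CPM of the 10 cholangiocyte markers, so the class may not be pure. Among the 16 T and NK genes, Cd3e, Cd3g, Gzma and Ncr1 were at 0 in Kupffer nuclei, but the list was not absent. It summed to 682, 298, 437 and 376 CPM there. T and NK nuclei, which were chosen by this list, held 4764 to 11274 CPM of it. Monocyte and dendritic nuclei held 195 to 366 CPM of it, and Kupffer nuclei without those of high hepatocyte share 184 to 274 CPM.

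A Kupffer nucleus showed only part of the markers at this depth. After each nucleus was thinned to 1000 UMIs, leaving out 36, 77, 30 and 41 shallower nuclei, Clec4f was detected in 73.5%, 69.1%, 70.1% and 64.1% of nuclei and Timd4 in 30.7%, 41.0%, 27.6% and 36.5%. Unthinned, the shares were 92.0%, 86.7%, 86.5% and 83.2% for Clec4f and 49.6%, 56.2%, 41.8% and 51.5% for Timd4. In endothelial nuclei, thinned likewise, each gene of the rule was seen in at most 2.71%. The rule and the limit of 1 such UMI in the endothelial class fix the order of these shares, so they do not measure the background of free RNA.
The median number of the 6 genes seen per thinned nucleus was 3, 4, 3 and 3. Beyond the rule's own requirement, no single marker was seen in all nuclei. Timd4 and Clec4f were seen together in 26.5%, 29.3%, 21.0% and 23.1%, and neither in 22.4%, 19.2%, 23.4% and 22.5%. Spi1 was seen in 29.9% to 30.7% of thinned nuclei. Id3, named above among the identity factors, was seen in 4.15% of them in Brca1-WT 1, 3.58% in Brca1-WT 2 and 3.27% in Brca1-KO 1. Thinned endothelial nuclei of these libraries showed Id3 in 5.77%, 4.70% and 4.57%, so it did not mark Kupffer nuclei there. The proliferation gene Mki67 was seen in 0.319%, 1.30%, 0.935% and 1.99%, which is 1, 4, 2 and 7 nuclei. A nucleus without a Timd4 UMI cannot be called free of the transcript at this depth.

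Thinned nuclei with and without a Timd4 UMI were compared by summed list levels. The further identity genes summed to 13021, 15675, 14017 and 11031 CPM where Timd4 was seen and to 11180, 12746, 12761 and 11031 CPM where it was not. Fc and inhibitory receptors were at 6427, 6976, 7169 and 5508 against 5304, 5801, 5994 and 5314 CPM. Scar- and lipid-associated macrophage genes were at 239.6, 317, 322 and 297 against 286, 409, 426 and 349.8 CPM.
The Fc list was higher and the scar-associated list lower beside Timd4 in all 4 libraries, and the identity list was higher in the first 3 and level in Brca1-KO 2. Lists without Kupffer genes were also higher beside Timd4 in all 4. Mitochondrially encoded genes were at 5573, 4405, 3763 and 5977 against 5097, 3812, 3135 and 4700 CPM. Brca1 and its homologous recombination partners were at 740, 706, 661 and 609 against 553, 547, 594 and 529 CPM. A higher level beside Timd4 was thus not particular to Kupffer genes. Hepatocyte markers were at 8156, 7619, 5932 and 7891 against 9894, 9602, 7800 and 7901 CPM, lower beside Timd4 in 3 libraries and nearly level in Brca1-KO 2, and their part in these differences was not tested. Timd4 is part of the rule, so nuclei without it had to hold other genes of the rule, and no test was made.

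Kupffer nuclei were 5.30%, 5.11%, 4.83% and 6.07% of the nuclei that passed the filters, with exact Clopper-Pearson 95% intervals of 4.77 to 5.87%, 4.62 to 5.63%, 4.26 to 5.46% and 5.50 to 6.69% that cover counting error only. The Brca1-KO mean was 0.253 percentage points higher (2-sided exact permutation p = 1), and the libraries overlapped. Without Brca1-KO 2 the difference was -0.368 points. Of non-hepatocyte nuclei, Kupffer nuclei were 11.8%, 14.7%, 12.0% and 23.7%. That difference was 4.61 points (2-sided exact permutation p = 0.667) and -1.27 points without Brca1-KO 2. With 2 libraries against 2, this test cannot give a p below 0.333. The high share in Brca1-KO 2 goes with its low endothelial count, and the part of that count in it was not tested.

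**Figure D3:**
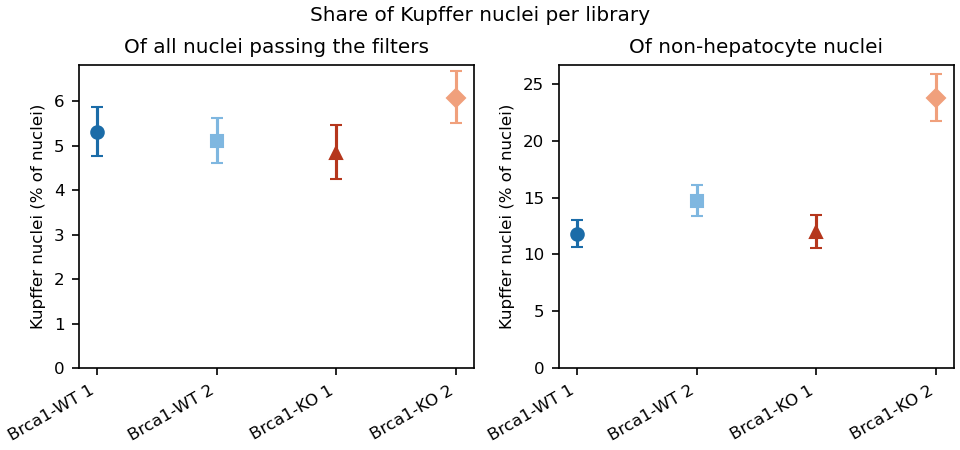
Kupffer nuclei as a percentage of all nuclei passing the filters (left) and of non-hepatocyte nuclei (right) per library, with exact 95% intervals of counting error. Brca1-KO 2 is highest in both, at 6.07% and 23.7%.

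No gene of the Kupffer nuclei was called different between the genotypes. UMIs were summed per library and tested with edgeR's quasi-likelihood test over 9110 genes, and 0 passed a Benjamini-Hochberg adjusted p of 0.05 (0%; smallest adjusted p 0.988). An unadjusted p below 0.05 was found for 386 genes (4.24%), and DESeq2 called 2, Slc1a2 and Sntg2, both lower in libraries labelled Brca1-KO. Leaving out Brca1-WT 1, Brca1-WT 2 or Brca1-KO 1 gave 6, 5 and 6 calls, and leaving out Brca1-KO 2 gave 0. The lone library left in a group is then assumed to vary like the others. Genes are named below for their small unadjusted p and are described, not called. Levels are CPM normalised with TMM, a scaling that evens out library composition, and differences are log2 fold changes of Brca1-KO over Brca1-WT ± SE.

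The genes of the rule overlapped between genotypes, apart from Cd5l. Nuclei with few UMIs of these genes were left out by the rule, which bounds the levels given here. The overlap thus does not show that expression was equal. Cd5l was at 1065, 1110, 636 and 1010 CPM (-0.40 ± 0.29). Both Brca1-WT libraries were higher, by little against Brca1-KO 2. The log2 fold changes of the others were -0.21 ± 0.35 for Timd4, -0.11 ± 0.24 for Clec4f, -0.08 ± 0.27 for Vsig4, -0.02 ± 0.29 for Adgre1 and 0.02 ± 0.32 for Cd163. Thinned nuclei with a Cd5l UMI made up 69.3%, 69.4%, 48.1% and 62.4%. Without nuclei of high hepatocyte share, the 6 genes summed to 7499, 7504, 6123 and 5339 CPM, where both libraries labelled Brca1-KO were lower, and the log2 fold changes ran from -0.63 for Cd5l to -0.07 for Cd163.

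Among the genes higher in both libraries labelled Brca1-KO, Plxdc1, a transmembrane receptor with a plexin domain, was at 8.31, 29.5, 68.1 and 117 CPM (2.35 ± 0.55). Slc15a2, a proton-coupled peptide transporter, was at 10.8, 21.1, 76.8 and 41.8 CPM (1.91 ± 0.44). Adcy3, an adenylyl cyclase, was at 17.4, 9.47, 39.1 and 50.2 CPM (1.70 ± 0.39).
For these 3 genes the groups did not overlap, which the rule for naming them required, as it did for 32.9% of all genes in either direction. In nuclei of low hepatocyte share the log2 fold changes of Plxdc1, Slc15a2 and Adcy3 were 2.30, 1.93 and 1.19. Arhgap10, a GTPase-activating protein, was the most abundant of the group at 105, 114, 175 and 221 CPM (0.86 ± 0.22), and hepatocyte-rich nuclei held at most 10.5 CPM of it. The matrix metalloproteinase gene Mmp27 (32.4, 32.6, 73.9 and 63.3 CPM, 1.07 ± 0.26) and the metalloprotease gene Amz1 (29.1, 24.2, 55.0 and 63.3 CPM, 1.14 ± 0.28) were below 1 CPM in hepatocyte-rich nuclei of every library. Stip1, a co-chaperone of HSP70 and HSP90 (1.17 ± 0.28), and Lnx1, a ubiquitin ligase (1.32 ± 0.35), were also higher in hepatocyte-rich nuclei of both libraries labelled Brca1-KO, with Lnx1 at 54.5, 59.9, 106 and 112 CPM there. The same held for Slc15a2, at 9.30, 7.05, 21.1 and 26.1 CPM in hepatocyte-rich nuclei, and its log2 fold change in endothelial nuclei was 1.95 (Kupffer minus endothelial -0.02 ± 0.48).

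Of the 8 named genes lower in both libraries labelled Brca1-KO, all but Dpp6 were present in hepatocyte-rich nuclei at levels near or above those of Kupffer nuclei. Sntg2, a syntrophin, was at 210.2, 106, 27.5 and 34.7 CPM (-2.34 ± 0.38) in Kupffer nuclei and 444, 249, 65.9 and 87.5 CPM in hepatocyte-rich nuclei. Slc1a2, a glutamate transporter, was at 491, 192, 79.6 and 66.9 CPM (-2.23 ± 0.46), and 636, 444, 428 and 294 CPM in hepatocyte-rich nuclei. Without nuclei of high hepatocyte share, the log2 fold change was -2.91 for Sntg2 and -0.96 for Slc1a2.
The difference of Slc1a2 was thus smaller without those nuclei and that of Sntg2 was not. Trim2, a ubiquitin ligase, went from -1.35 ± 0.29 to -0.23 and Tmem150a from -1.27 ± 0.31 to -0.31 without them. Ripor2 went from -1.34 ± 0.32 to -0.82, and Oat, which degrades ornithine, from -1.36 ± 0.35 to -1.63. Dpp6, a partner of potassium channels, was at 40.7, 44.2, 8.69 and 14.3 CPM (-1.84 ± 0.38) but at most 1.62 CPM in hepatocyte-rich nuclei, and its log2 fold change was -2.44 without nuclei of high hepatocyte share. Arl4a, a small GTPase, was at 29.1, 35.8, 11.6 and 5.97 CPM (-1.90 ± 0.44).

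**Figure D4:**
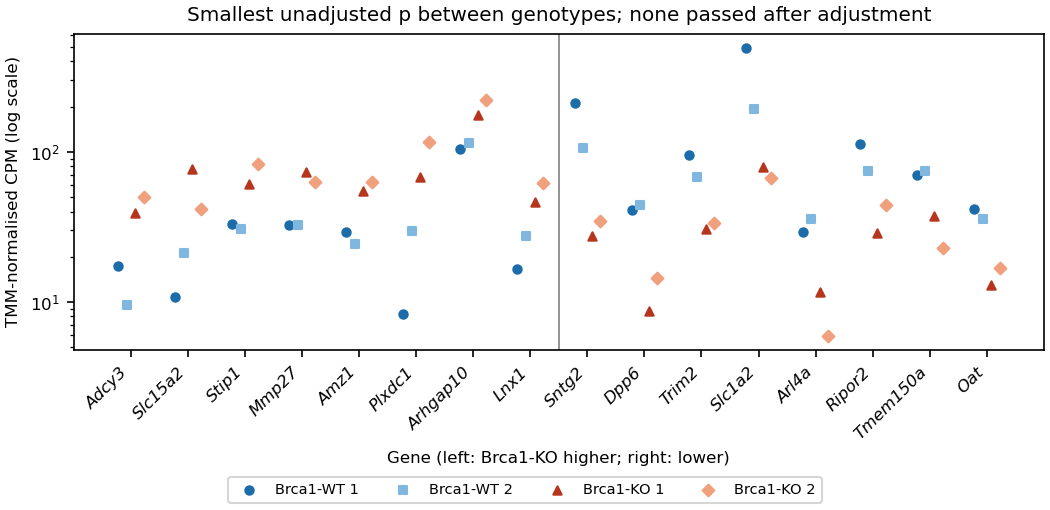
TMM-normalised CPM on a log axis of the 16 genes named for the genotype comparison; each point is 1 library. The groups do not overlap for any of them, which the rule for naming required, and none passed the adjusted test.

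Bhmt, which encodes betaine-homocysteine methyltransferase and is named in the title of the series, is a hepatocyte enzyme gene of homocysteine remethylation. In Kupffer sums it was at 948, 628, 355 and 129 CPM (-1.71 ± 0.48), and in hepatocyte-rich nuclei at 1873, 1201, 719.6 and 271 CPM. In either class the Brca1-WT libraries both exceeded those labelled Brca1-KO. Thinned nuclei with a Bhmt UMI made up 32.3%, 24.8%, 13.6% and 5.98% of Kupffer nuclei and 24.8%, 18.9%, 13.1% and 9.54% of endothelial nuclei, a cell type that should lack the gene, with median depths of 1911, 1644, 1762 and 1662 and 1936, 1520, 1618 and 1532 UMIs before thinning. The Kupffer share lay above the endothelial share in both Brca1-WT libraries, close to it in Brca1-KO 1 and below it in Brca1-KO 2, and both classes had the same order of libraries. Without nuclei of high hepatocyte share the log2 fold change of Bhmt in Kupffer sums was -1.24. The part of hepatocyte RNA in these values was not tested.

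Gene lists were compared by their counts, beside all tested genes, of which 4454 were higher and 4656 lower at a median log2 fold change of -0.01. No member of any list passed. Lysosomal genes were higher in 14 of 18, with a median of 0.27 (0.10 without nuclei of high hepatocyte share). For 7 of them both libraries labelled Brca1-KO were above both Brca1-WT libraries, as for 16.3% of all genes. Lgmn, a lysosomal endopeptidase, was at 311, 381, 446 and 722 CPM (0.76 ± 0.28). Ctsb, cathepsin B, was at 307, 467, 495 and 799 CPM (0.74 ± 0.32).
Both were highest in Brca1-KO 2, and their log2 fold changes were 0.54 and 0.54 without nuclei of high hepatocyte share. Ctss and Ctsd, further cathepsins, were also higher in both libraries labelled Brca1-KO, Ctsd by very little in Brca1-KO 1 (0.46 ± 0.21 and 0.65 ± 0.33).

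Receptor lists leaned the same way with smaller differences. In the same sums the 17 monocyte and dendritic markers were at 1114, 1028, 1357 and 1458 CPM and the 12 B cell markers at 491, 495, 667 and 544 CPM, both higher in the libraries labelled Brca1-KO, and their part in these lists was not tested. Most of the first sum came from Cadm1, as given above. Without nuclei of high hepatocyte share the B cell markers summed to 823, 691, 998 and 710 CPM, where the groups overlapped. The monocyte and dendritic markers, then at 1692, 1328, 1988 and 1762 CPM, stayed higher in both libraries labelled Brca1-KO. Of the 4 monocyte and dendritic markers with enough counts to test, 2 were higher and 2 lower. Of the 3 such B cell markers, 2 were higher and 1 lower. Growth factor and cytokine receptors were higher in 16 of 22 (median 0.19, and 0.04 without nuclei of high hepatocyte share). Tgfbr1 and Tgfbr2, the receptor chains for TGF-beta, were at 239, 277, 366 and 386 CPM (0.54 ± 0.21) and at 139, 145, 188 and 209 CPM (0.49 ± 0.20). Scavenger and efferocytosis receptors were higher in 16 of 19 (median 0.14), and Fc and inhibitory receptors in 14 of 18 (median 0.16). Without nuclei of high hepatocyte share, the medians of these last 2 lists were 0.02 and 0.00.
The further identity genes were higher in 13 of 20, with a median of 0.13 that was -0.01 without those nuclei. The lean of the identity list was thus not seen in nuclei of low hepatocyte share. Fcna, a ficolin, was at 33.2, 51.6, 71.0 and 81.3 CPM (0.86 ± 0.29). Hmox1, heme oxygenase, differed by 0.91 ± 0.43 on the log2 scale, at 37.4 CPM in Brca1-WT 1, 130.3 CPM in Brca1-KO 1 and 125 CPM in Brca1-KO 2, with Brca1-WT 2 between them. Hepatocyte markers were lower in 16 of 20 (median -0.16), and their summed level, given above, had both Brca1-WT libraries on top. Without nuclei of high hepatocyte share, which these markers define, the median was -0.03. The sums were then 5977, 6067, 4898 and 6143 CPM, and the groups overlapped.

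Chaperone genes had the same order of libraries in Kupffer and hepatocyte-rich nuclei in part. Immediate early and heat shock genes were higher in 9 of 13 (median 0.30, and 0.56 without nuclei of high hepatocyte share). Hsph1, a chaperone of the HSP110 family, was at 24.1, 33.7, 50.7 and 99.2 CPM (1.40 ± 0.38) in Kupffer nuclei and 23.4, 45.2, 76.0 and 160.0 CPM in hepatocyte-rich nuclei. Hsp90ab1, an HSP90 chaperone, was at 79.8, 95.8, 138 and 208 CPM (0.98 ± 0.27), and Hspa5, the chaperone BiP, at 91.4, 60.0, 99.9 and 222 CPM (1.09 ± 0.40). All 3 were highest in Brca1-KO 2, also in hepatocyte-rich nuclei, where the groups did not overlap for Hsp90ab1 (93.3, 135, 183 and 272 CPM) and overlapped for Hspa5 (96.3, 41.9, 89.4 and 282 CPM).

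Several lists had more lower than higher members. Ribosomal protein genes were lower in 23 of 30 (median -0.29, and -0.17 without nuclei of high hepatocyte share), and for 11 the Brca1-WT libraries both exceeded the other pair, as for 16.6% of all genes. Their summed level was 837, 1145, 805 and 834 CPM, high in Brca1-WT 2 alone. Interferon response genes were lower in 12 of 18 (median -0.12, and -0.24 without nuclei of high hepatocyte share), among them Oasl2, of the oligoadenylate synthetase family (29.1, 27.4, 13.0 and 17.9 CPM, -0.85 ± 0.37), while the factor gene Irf1 had the other sign (0.68 ± 0.29). Genes of the one-carbon and methionine cycle, which holds Bhmt, were lower in 12 of 18 (median -0.12, and -0.08 without nuclei of high hepatocyte share). Their summed level was 4739, 4142, 3949 and 1845 CPM in Kupffer nuclei and 8845, 8403, 7979 and 3817 CPM in hepatocyte-rich nuclei, lowest in Brca1-KO 2 in both. Iron and heme genes were lower in 12 of 19 (median -0.04) and antigen presentation genes in 9 of 16 (median -0.10). Inflammatory genes counted 6 higher and 6 lower (median -0.02, and -0.18 without nuclei of high hepatocyte share). Il1b, the cytokine interleukin-1 beta, was at 62.3, 28.4, 11.6 and 21.5 CPM (-1.44 ± 0.49). Nlrp3, the inflammasome sensor, was at 49.0, 54.7, 78.2 and 76.5 CPM (0.58 ± 0.24). Mki67 was the only proliferation gene with enough counts, at 3.32, 6.32, 15.9 and 16.7 CPM, which rests on 4, 6, 4 and 9 nuclei.

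The genotype difference itself was compared between Kupffer and endothelial nuclei of the same libraries. Of 10712 genes, 0 passed in edgeR's quasi-likelihood test of the interaction (0%; smallest adjusted p 0.591), 453 had an unadjusted p below 0.05 (4.23%), and DESeq2 called 0. Leaving out Brca1-WT 1 or Brca1-WT 2 gave 5 and 10 calls, and leaving out either library labelled Brca1-KO gave 0. Plxdc1 had the smallest p, with a log2 fold change 2.28 ± 0.40 higher in Kupffer than in endothelial nuclei. Endothelial nuclei held 49.3, 87.6, 64.1 and 78.8 CPM of Plxdc1, where the genotypes overlapped (log2 fold change 0.06). In Kupffer sums both libraries labelled Brca1-KO were higher, as given above. Dysf, dysferlin, which takes part in membrane repair, was at 242, 122, 339 and 365 CPM in Kupffer and 499, 356, 413 and 404 CPM in endothelial nuclei (difference 1.06 ± 0.30). Foxp2, a forkhead transcription factor, was at 281, 125, 97.1 and 94.5 against 113, 73.4, 86.8 and 128 CPM (difference -1.18 ± 0.32).

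Some genes set Brca1-WT 2 apart from the other libraries, its own genotype included. These genes were chosen after their values were seen: of 4281 genes at 50 CPM or more there, 9 (0.21%) were at least 4-fold above each of the other 3 libraries, also without nuclei of high hepatocyte share. Brca1-WT 1 and Brca1-KO 1 had 0 such genes and Brca1-KO 2 had 1 of 4010 (0.0249%), Car3, an abundant carbonic anhydrase of hepatocytes, at 28.7, 16.8, 0 and 206 CPM. St18, a zinc finger transcription factor, was at 4.92, 663, 1.42 and 9.01 CPM before TMM scaling. Nrg3, a neuregulin, was at 18.9, 196, 9.94 and 1.13 CPM, and Ttn, titin, at 0.820, 141, 4.26 and 0 CPM.
Cxcl13, a chemokine that attracts B cells, was at 14.8, 98.4, 12.8 and 11.3 CPM, and Cdh6, a cadherin, at 2.46, 60.7, 0 and 1.13 CPM. Only Brca1-WT 2 was high for these 5 genes. The rest were Cd55, Adam23, Gas7 and Gm15675, which endothelial nuclei of the same libraries held at higher levels, with Cd55, a complement regulator, at 576 to 636 CPM there and at 21.3, 341, 45.4 and 23.6 CPM in Kupffer nuclei. In Brca1-KO 2, Got1, aspartate aminotransferase, stood apart on the low side at 232, 464, 714 and 19.1 CPM, as did Gm6614. Hepatocyte-rich nuclei had the same library apart for these genes and for Car3. There Got1 was at 440, 912, 1377 and 26.8 CPM, Gm6614 at 325, 285, 178 and 1.72 CPM, and Car3 at 28.2, 23.3, 4.51 and 372 CPM.

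The St18 transcript was spread over many nuclei of Brca1-WT 2. It was seen in 207 of 384 Kupffer nuclei (53.9%, exact Clopper-Pearson 95% interval 48.8 to 59.0%), against 3 of 349, 1 of 244 and 7 of 392 in the other libraries. In endothelial nuclei St18 was at 2.47, 6.21, 0.537 and 0 CPM and in hepatocyte-rich nuclei at 0.486, 3.24, 0.345 and 0.467 CPM. All other non-hepatocyte nuclei together, unnamed ones included, held 34, 238, 17 and 13 UMIs of it (5.51, 56.4, 4.59 and 4.35 CPM). Brca1-WT 2 was thus highest in endothelial and hepatocyte-rich nuclei and in this pool as well, at lower levels. The pool included nuclei with enough marker UMIs that the exclusion genes had removed, and their part was not tested. T and NK nuclei held 16.5, 0, 0 and 2.88 CPM of St18, from 8, 0, 0 and 2 UMIs. Monocyte and dendritic nuclei held 68.2, 162, 151 and 0 CPM of St18, from 7, 8, 14 and 0 UMIs, so in that small class St18 did not set Brca1-WT 2 apart. Kupffer nuclei of Brca1-WT 2 with and without a St18 UMI both held genes of the rule, as the rule required of every nucleus. Cd163 was at 1100 and 731 CPM and Clec4f at 1174 and 1002 CPM. Both sets of nuclei also held Nrg3 (227 and 163 CPM) and Cdh6 (59.2 and 62.3 CPM).
Some of these genes were also higher in Kupffer nuclei with a UMI of Marco, a scavenger receptor for bacteria and particles, than in those without. Marco was highest in Brca1-WT 2, at 54.1, 333, 59.6 and 106 CPM, and thinned nuclei with a Marco UMI made up 5.75%, 28.3%, 5.61% and 6.84%. Unthinned, a Marco UMI was seen in 29, 146, 21 and 44 nuclei. Cd55 was at 64.6, 379, 145 and 73.9 CPM in those nuclei and 17.8, 317, 35.8 and 16.7 CPM in the other Kupffer nuclei of the same libraries. Irak3, an inhibitor of Toll-like receptor signalling, was at 108, 195, 96.5 and 55.4 against 22.2, 121, 20.2 and 34.6 CPM, and Cxcl13 at 108, 136, 64.4 and 18.5 against 7.10, 74.0, 7.79 and 10.3 CPM. These 3 genes, of which Irak3 is not one of the 9, were higher beside Marco in all 4 libraries, with few nuclei behind the values outside Brca1-WT 2. The same held for genes that did not set Brca1-WT 2 apart, with Ptprj at 4651, 3933, 5631 and 4238 against 2431, 3155, 3077 and 2945 CPM, and with Cd5l, Adgre1 and Slc40a1. It did not hold for Adam23 (43.1, 174, 16.1 and 9.23 against 24.0, 149.8, 17.1 and 11.5 CPM) or Gas7 (10.8, 98.8, 0 and 0 against 4.44, 60.3, 4.67 and 7.69 CPM), which were lower beside Marco in both libraries labelled Brca1-KO. Nor did it hold for Clec4f, Timd4, Cd163 and Vsig4. Clec4f was lower beside Marco in Brca1-WT 2 (1049 against 1116 CPM) and Brca1-KO 2 (960 against 1064 CPM). Timd4 was lower in Brca1-KO 1 (193 against 249 CPM). Cd163 (526 against 567 CPM) and Vsig4 (443 against 536 CPM) were lower in Brca1-KO 2. St18 was at 0, 793, 0 and 9.23 against 5.33, 579, 1.56 and 8.97 CPM and was at most 9.23 CPM in the Kupffer nuclei of the other libraries, with or without Marco. Nuclei with and without Marco had median depths of 2374, 1737, 1530 and 1917 and 1826, 1568, 1765 and 1656 UMIs, and the part of depth was not tested. Clec4f, a gene of the rule, lay among the other libraries in Brca1-WT 2, and the median depth per nucleus of this library was the lowest, close to Brca1-KO 2. The genes of the rule summed to 4137, 5102, 3927 and 4179 CPM and the further identity genes to 7769, 10625, 9485 and 9449 CPM. Both sums were highest in Brca1-WT 2, while other lists had another library on top, such as iron and heme genes (4274, 4497, 4122 and 4626 CPM). Whether strain, animal, handling or sequencing differed for this library was not tested.

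**Figure D5:**
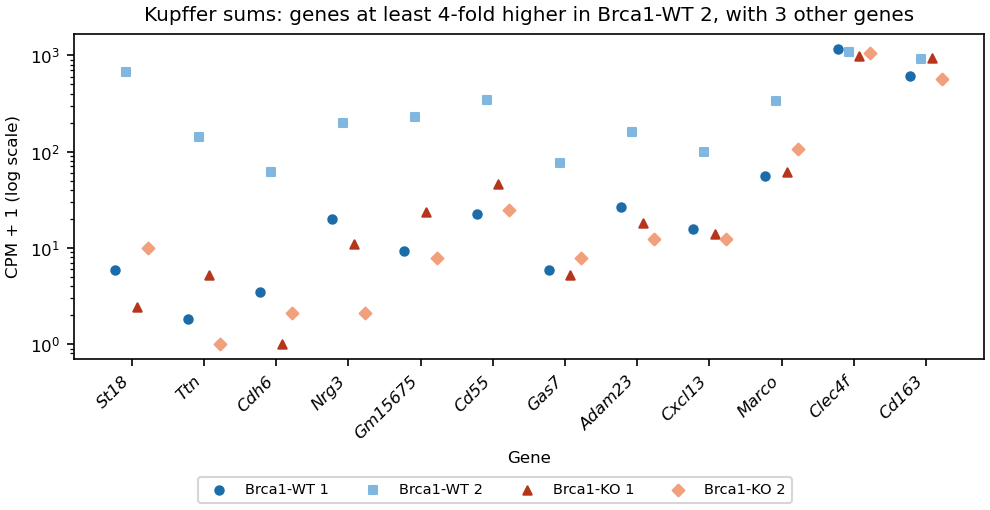
CPM plus 1 on a log axis in Kupffer sums for the 9 genes at least 4-fold higher in Brca1-WT 2, with Marco, Clec4f and Cd163 beside them; each point is 1 library. Brca1-WT 2 lies above the other 3 libraries for the first 10 genes, and for Clec4f and Cd163 it lies among them.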

How the data were processed

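Single-nucleus 3′ libraries of 4 liver samples were used. The authors deposited raw UMI counts per gene and nucleus from Cell Ranger 6.0.0, per the file headers. The submitters' processing notes name GRCh38, while all 32285 gene identifiers in the files are mouse, and the sources used here do not give the mouse build or annotation. The labels state extraction of DNA for these RNA libraries, which was not resolved.

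Nuclei were chosen as the report opens with. Nuclei above a cutoff in the summed share of 20 hepatocyte markers, set per library by Otsu's method (scikit-image 0.26.0), were called hepatocyte-rich unless they were Kupffer nuclei. The other named classes needed at least 4 UMIs of their own markers and at most 1 UMI of the rule's marker genes. Doublets were called with Scrublet in scanpy 1.11.5 (expected rate 0.06) and kept, with a repeat without them. Counts were summed per library and class and tested with edgeR 4.0.16 (R 4.3.3; TMM, filterByExpr, robust quasi-likelihood, Benjamini-Hochberg threshold 0.05), and repeated with DESeq2 1.42.0, other filters and each library left out. CPM values in class comparisons are not TMM-scaled. Single shares were compared by exact permutation. Intervals cover counting error only. The scripts were tested on simulated data.

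The members and the 29 gene lists were chosen with earlier results of these data known. Named genotype genes were, as none passed, the 8 each way of smallest unadjusted p among genes whose groups did not overlap and whose average log2 CPM reached 4. Unnamed gene models were left out, and 1 of the 25 genes that marked Kupffer nuclei is not reported here. For each list up to 4 genes of smallest p could be named, and for the interaction up to 5 each way. Genes setting 1 library apart were chosen after their values were seen. The labels do not pair the replicate numbers, and deviations of same-numbered libraries had a correlation of -0.044 over 9110 genes.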

Additional observations from a re-analysis of the deposited data

How the results depend on the processing

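The count of genes called between genotypes was 2 with DESeq2 and 52 with no filter on low counts (17 higher and 35 lower in libraries labelled Brca1-KO), and 0 to 6 with 1 library left out. With the replicate number as a block it was 0, with 310 genes at an unadjusted p below 0.05. The difference of the genotype effect between Kupffer and endothelial nuclei gave 8 calls with no filter on low counts, and 0 to 10 with 1 library left out. The causes were not tested. The count of genes 4-fold above the other classes was 28 without nuclei of high hepatocyte share. The Kupffer share of all nuclei, Brca1-KO minus Brca1-WT, was -0.457 points with at least 6 marker UMIs, -1.06 points with the exclusion genes not used, and -0.368 to 0.873 points with 1 library left out. The share of non-hepatocyte nuclei ranged from -1.27 to 10.5 points with 1 library left out.

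Small log2 fold changes of the genes of the rule changed sign. With the exclusion genes not used they were 0.13 for Clec4f, 0.14 for Vsig4 and 0.18 for Adgre1. Adgre1 was 0.00823 with DESeq2 and 0.032 with at least 6 marker UMIs. Cd163 was -0.023 with at least 3 marker UMIs, -0.11 without called doublets, -0.074 without nuclei of high hepatocyte share, -0.035 in thinned nuclei and -0.092 with no exclusion UMI allowed. With 1 library left out, Timd4 ranged from -0.65 to 0.23, Vsig4 from -0.33 to 0.22, Cd163 from -0.35 to 0.35 and Adgre1 from -0.30 to 0.26. At 244 to 392 Kupffer nuclei per library, genes of few UMIs have wide errors, and 2 libraries per group limit every genotype comparison.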
